A study of Homo sapiens with 12 samples.

Results

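HepG2 and Huh7 cells, the human hepatoma lines in which the role of UBL5 was studied, were compared with each other in the state that serves as the control for UBL5 silencing. The comparison used the 6 libraries with Ctrl-siRNA, 3 of HepG2 and 3 of Huh7, of the 12 libraries in the series, and the labels alone decided which libraries entered. Both groups are labelled as wildtype hepatocellular carcinoma cells grown in low glucose medium, lipid-transfected with a non-target siRNA, given fresh medium the next day and harvested at 52 h by the labels, while the study's own text gives a shorter time. Polyadenylated RNA was made into stranded libraries. The 6 other libraries received UBL5 siRNA and entered only an alternative fit and a side comparison at the end. Each group is a single line from a single tumor, so line, donor and culture history cannot be told apart, and nothing in the labels says whether the 3 libraries of a group came from separate transfections. The p-values therefore measure the spread between these libraries.

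Hepatocytes make most plasma proteins, clear ammonia through the urea cycle, oxidize and conjugate drugs, secrete bile acids and handle lipoproteins and iron. These programs are held in place by a network of transcription factors in which HNF4A and the FOXA factors are central. Hepatoma lines keep parts of this program and add features of fetal liver, such as AFP, and of tumor growth. Genotypes were not read from these data.

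The deposited tables list genes separately for each line, 17640 for HepG2 and 18434 for Huh7, and 15781 genes are listed for both. The difference between the lines could be computed for these shared genes, which took 99.5% of the listed counts in the HepG2 libraries and 98.8% in the Huh7 libraries. Listed counts per library were 25354410, 23672962 and 29744471 in HepG2 and 27158770, 21920012 and 19469574 in Huh7. Levels are given as CPM, counts scaled to a common library total with TMM factors, and the values of 3 libraries are always given in the order of their replicate numbers. Differences are log2 values of HepG2 minus Huh7 from edgeR. Their standard errors were derived as the absolute difference over the square root of the F statistic of the edgeR test. Where one line has few counts, a value derived in this way can be smaller than the counting error alone. HepG2 Ctrl-siRNA replicate 3 stood apart. In it 1773 listed genes stood at 0, beside 183 and 201 in the other HepG2 controls and 36 to 54 in the Huh7 controls, and among genes with a mean count of 10 to 20 in the other HepG2 controls 42.1% stood at 0. Its column header also lacks a suffix that most others carry. The header of HepG2 UBL5 siRNA replicate 3 lacks it too, and there 233 listed genes stood at 0. The biological coefficient of variation of the controls was 0.267 in HepG2, 0.079 without Ctrl-siRNA replicate 3, and 0.0718 in Huh7.

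Most genes differed between the lines, about as many in each direction. Of 15311 genes tested, 9080 (59.3%) passed an adjusted p of 0.05, 4565 of them (29.8%) higher and 4515 (29.5%) lower in HepG2. A second call asked for a difference beyond 2-fold, and 2534 genes (16.6%) passed it, 1230 (8.03%) higher and 1304 (8.52%) lower in HepG2. In 69.9% of tested genes, the 3 values of one line all lay above the 3 values of the other. Without HepG2 Ctrl-siRNA replicate 3, 10917 and 3180 genes passed the 2 calls. Genes that passed the second call made up 19.4% of the 11824 protein-coding genes tested, 10.6% of 1341 lncRNA genes and 3.58% of 1675 processed pseudogenes. At the far end, 266 called genes differed by at least 32-fold. Libraries of one line correlated at 0.973 to 0.996 across genes in HepG2 and at 0.995 to 0.996 in Huh7, and libraries of different lines at 0.855 to 0.879 (Pearson's r of log2 CPM over 15311 genes, which are not independent replicates).

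**Figure D1:**
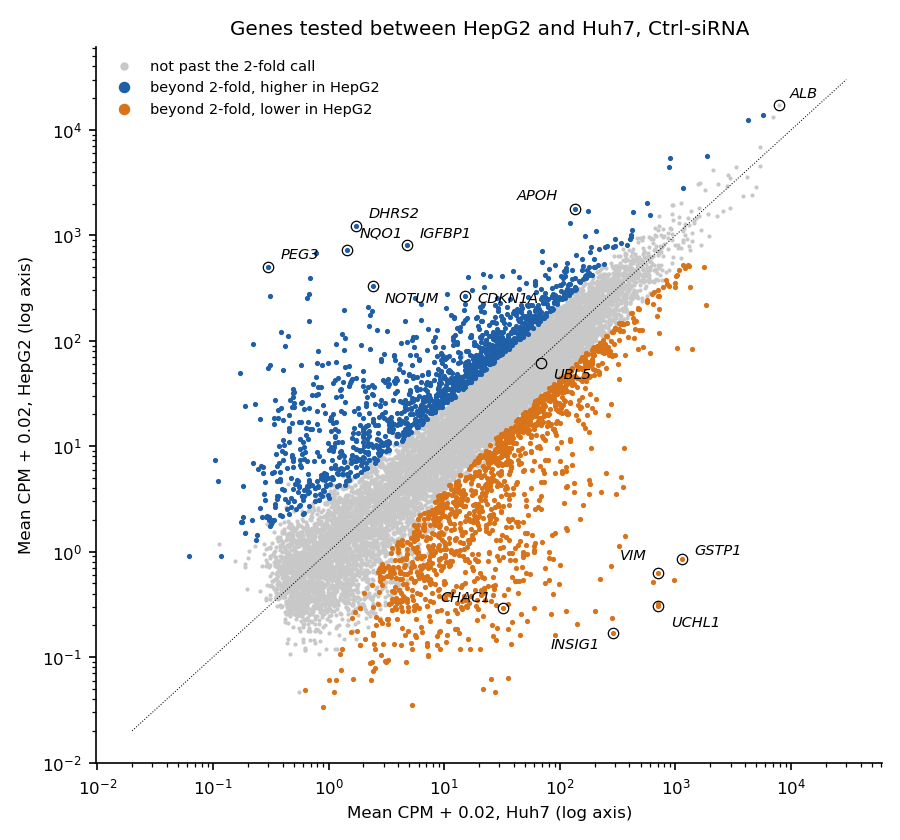
Mean CPM in Huh7 (horizontal) against HepG2 (vertical) for the genes tested, both on log axes with 0.02 added. Blue and orange points passed the call beyond 2-fold as higher or lower in HepG2, grey points did not, and the dotted line marks equal levels. PEG3 had a mean of 497 CPM in HepG2 and 0.281 in Huh7, and UCHL1 had 0.284 and 711.

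The genes with the largest differences were silent or nearly so in one line and abundant in the other. Those named are from the 12 protein-coding genes farthest in each direction among genes with a mean of at least 100 CPM in the higher line. PEG3, a paternally expressed imprinted gene (ENSG00000198300, chromosome 19 from 56810077 to 56840728 of GRCh38), had 535, 505 and 450 CPM in HepG2 and 0.32, 0.223 and 0.301 in Huh7, a difference of 10.75 (standard error 0.14, adjusted p = 6.27e-09). DLK1, another imprinted gene that encodes a Notch-like membrane protein of fetal liver, had 230, 293 and 269 CPM against 0.355, 0.312 and 0.201. NQO1, the quinone reductase (chromosome 16 from 69706996 to 69726668), had 701, 736 and 733 CPM against 1.03, 1.16 and 2.06. In all of these the lines were far apart in every library. SLC2A3, a high-affinity glucose transporter, differed by 9.80 (standard error 0.13) with a mean of 676 CPM in HepG2. DHRS2, a short-chain dehydrogenase, differed by 9.48 (standard error 0.19). HPD, which acts in tyrosine breakdown, differed by 9.14 (standard error 0.14). All 3 Huh7 libraries together held 20 counts of PEG3, 53 of SLC2A3 and 49 of HPD. The standard errors of such differences are therefore too small, and their sizes are less certain than printed. CPLX2 and BPIFB2, differing by 8.72 and 8.71, MIXL1, a homeobox gene of mesendoderm, at 8.33, SSUH2 at 8.05, AKR1B10, an aldo-keto reductase, at 7.81 and IGFBP1, the insulin-regulated binding protein of insulin-like growth factors, at 7.44 completed the 12 higher in HepG2.

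In the other direction, UCHL1, a ubiquitin hydrolase best known from neurons (ENSG00000154277, chromosome 4 from 41256413 to 41268455), had 0.404, 0.448 and 0 CPM in HepG2 and 686, 724 and 725 in Huh7, a difference of −11.35 (standard error 0.29, adjusted p = 7.36e-08). INSIG1, the sterol-sensing anchor of the SREBP pathway in the endoplasmic reticulum (chromosome 7 from 155297776 to 155310235), had 0.121, 0.224 and 0.106 CPM against 290, 285 and 292. GSTP1, a glutathione transferase (chromosome 11 from 67583742 to 67586656), had 0.97, 1.17 and 0.355 CPM against 1146, 1162 and 1089. VIM, the intermediate filament of mesenchymal cells, had 0.728, 0.672 and 0.425 CPM against 692, 701 and 715. None of the HepG2 values of these genes came near the Huh7 values. GC, the vitamin D carrier of plasma, differed by −10.92, SLC10A1, the bile acid uptake transporter and hepatitis B virus receptor, by −10.43, and the chemokine CXCL5 by −10.37. NLRP1, an inflammasome sensor, differed by −9.63, TRIP6, a focal adhesion protein, by −9.60, GPRC5B by −8.86 and TNFAIP2 by −8.65. Low HepG2 counts made the size of several of these uncertain. Without HepG2 Ctrl-siRNA replicate 3 the difference was −10.69 for UCHL1, −10.26 for GC, −9.77 for SLC10A1, −8.97 for NLRP1 and −8.20 for GPRC5B. CXCL5 ran from −11.62 without HepG2 replicate 1 to −9.71 without replicate 3, and NLRP1 reached −10.47 without replicate 2.

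Of the central liver transcription factors, HNF4A was slightly higher and FOXA2 lower in HepG2, FOXA1 did not pass the test, and several other factors differed more. HNF4A, the master regulator of hepatocyte genes, had 425, 456 and 382 CPM in HepG2 and 344, 349 and 333 in Huh7, a difference of 0.30 (standard error 0.07, adjusted p = 0.00757). FOXA1, a pioneer factor of endoderm, did not pass the test (0.05, standard error 0.09, adjusted p = 0.635), and its values overlapped between the lines. FOXA2, its close relative, was lower in HepG2 by a difference of −0.99 (standard error 0.17, adjusted p = 0.00131), and CEBPA, a factor of mature hepatocytes, by −1.10 (standard error 0.18, adjusted p = 0.000974). NR5A2, an orphan nuclear receptor of bile acid and cholesterol genes, had 6.14, 7.48 and 8.44 CPM in HepG2 and 74.2, 72.3 and 74.8 in Huh7. NR1I2, the xenobiotic receptor PXR, had 19.1, 19.6 and 16.9 CPM against 0.391, 0.312 and 0.251. NR0B2, the bile acid-induced repressor SHP, had 177, 234 and 250 CPM against 21.1, 32.8 and 28.9, and MLXIPL, the glucose-sensing factor ChREBP, was higher in HepG2 by 2.81. Of 27 factors tested in this list, 5 were higher and 15 lower in HepG2, with 3 and 6 beyond 2-fold, and the median difference was −0.64 beside −0.02 over all genes tested.

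Secreted liver proteins took a larger summed share of counts in HepG2, while their genes differed in both directions. Much of the gap lay in a few abundant genes such as ALB and APOB. Their means were 17377 and 12312 CPM in HepG2 and 7929 and 4227 CPM in Huh7. Coagulation and complement genes summed lower in HepG2. Of 73 genes of plasma proteins, apolipoproteins, coagulation and complement, those listed for a line were summed. Listed for neither line were 3 plasma protein genes and 2 of coagulation and complement, and some were listed for 1 line only. The summed genes took 7.38%, 7.49% and 7.85% of listed counts in HepG2 and 4.94%, 5.19% and 5.01% in Huh7 (two-sided exact permutation p = 0.1, as small as 3 libraries against 3 allow). ALB, the main plasma protein, had 16559, 16914 and 18659 CPM in HepG2 and 8049, 8091 and 7645 in Huh7, a difference of 1.13 (standard error 0.07, adjusted p = 2.89e-06). AFP, the fetal counterpart of albumin, differed by 1.27 (standard error 0.06) and AHSG, the fetal glycoprotein fetuin-A, by 2.57 (standard error 0.11). Per kilobase of exon, ALB ranked 2nd in HepG2 and 8th in Huh7 among the genes tested, and AFP 3rd and 11th. SERPINA1, the elastase inhibitor, differed by 0.38 (standard error 0.06). TTR, the thyroid hormone carrier, did not pass the test (0.05, standard error 0.18, adjusted p = 0.846), and its HepG2 values of 165, 235 and 292 CPM enclosed the Huh7 values of 222 to 224.

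Plasma protein genes were divided between the lines, some by large differences. GC had 898, 1011 and 993 CPM in Huh7 against 0.809, 0.762 and 0 in HepG2. HPX, which binds heme, was lower in HepG2 by a difference of −3.26 (standard error 0.09), whereas ITIH3, a hyaluronan-binding inhibitor chain, was higher by 6.59 (standard error 0.21). Of 24 plasma protein genes tested, 11 were higher and 10 lower in HepG2, with 5 and 4 beyond 2-fold, and the median difference of 0.12 became −0.05 without HepG2 Ctrl-siRNA replicate 2. Coagulation and complement genes leaned toward Huh7, with 9 higher and 19 lower in HepG2 of 29 tested and a median of −0.92. Their summed level was also lower in HepG2, at 6870 to 7595 CPM beside 11295 to 12182 CPM in Huh7. C1R, a protease that starts the classical complement pathway, was lower by a difference of −4.70, or −4.08 without HepG2 Ctrl-siRNA replicate 3. C3, the central complement component, had 2411, 2386 and 2417 CPM in HepG2 and 4313, 4720 and 4598 in Huh7. FGB, a fibrinogen chain, had 436, 499 and 564 CPM against 1767, 1841 and 1698, so the lines did not overlap in either gene. The clotting factors F2 and F11 and the complement protease MASP2 were higher in HepG2, by 0.74, 3.10 and 3.25.

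Apolipoprotein genes differed in both directions. APOB, the structural protein of very low-density lipoprotein, had 11286, 12057 and 13592 CPM against 4020, 4485 and 4176. APOH had 1875, 1762 and 1744 CPM in HepG2 and 135 in each Huh7 library, a difference of 3.73 (standard error 0.06, adjusted p = 8.55e-09). APOA1, the main protein of high-density lipoprotein, differed by 1.19 (standard error 0.08), APOA4 by 4.18 and APOA5, which regulates plasma triglyceride, by 5.00. APOE did not pass the test (−0.42, standard error 0.18, adjusted p = 0.085), though it did under another scaling and without Huh7 Ctrl-siRNA replicate 1 (−0.57). Of 22 genes tested, 10 were higher and 7 lower in HepG2, 8 and 3 beyond 2-fold, with a median of 0.36. Without HepG2 Ctrl-siRNA replicate 3, 8 were higher and 6 lower, and the median was 0.13.

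**Figure D2:**
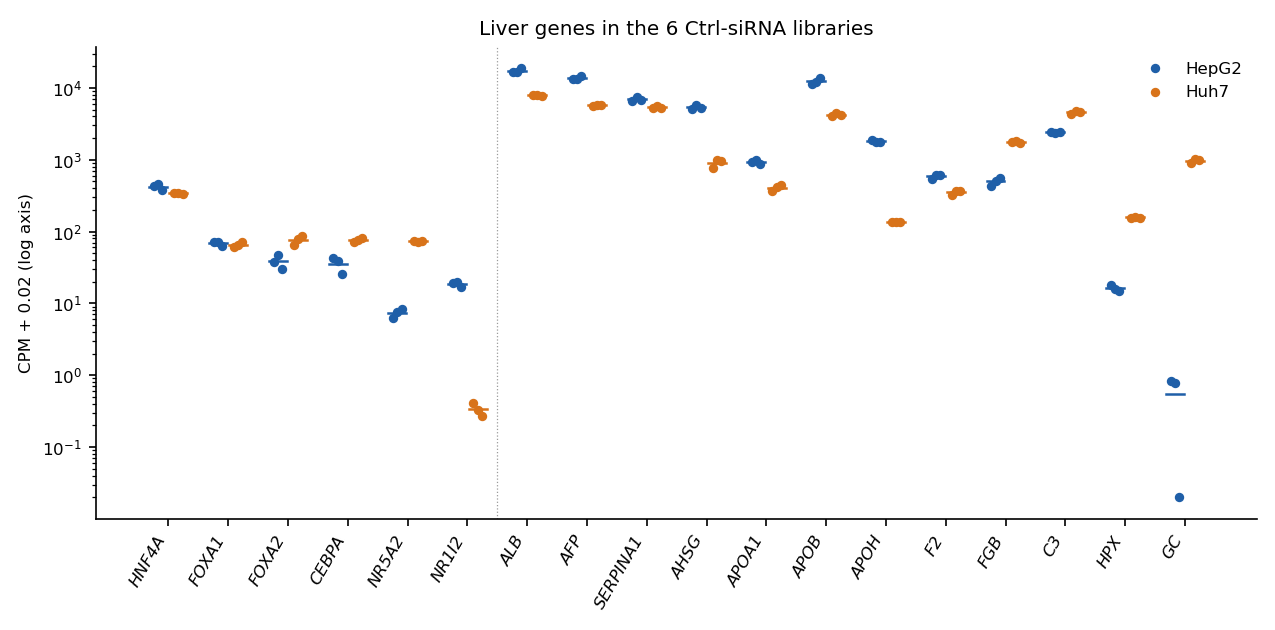
CPM with 0.02 added, on a log axis, of 18 liver genes in the 3 HepG2 (blue) and 3 Huh7 (orange) libraries with Ctrl-siRNA. Points are libraries, bars are means, and transcription factors stand left of the dotted line. FOXA1 overlaps between the lines, while NR5A2, HPX and GC lie lower and NR1I2, AHSG and APOH higher in HepG2.

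Enzymes of amino acid breakdown and of drug metabolism differed member by member. CPS1, which starts the urea cycle, had 58.5, 49.8 and 53.8 CPM in HepG2 and 4.16, 3.83 and 4.06 in Huh7. ARG1, the liver arginase that ends it, had 1.5, 2.33 and 3.65 CPM against 51.6, 70.6 and 59.8. The first and last enzymes of the cycle were thus high in different lines. HPD, BHMT, the betaine-homocysteine methyltransferase, and PRODH2 were higher in HepG2 by 9.14, 5.61 and 4.71. Of 27 genes of this list tested, 14 were higher and 7 lower in HepG2, 8 and 3 beyond 2-fold, with a median of 0.29.

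Among cytochrome P450 and other phase 1 enzymes, 19 of 41 could be tested. Of these 11 were higher and 6 lower in HepG2, 8 and 3 beyond 2-fold, and 8 and 6 without HepG2 Ctrl-siRNA replicate 3. The 4 largest differences were those of ADH4, an alcohol dehydrogenase (6.08), CYP2W1 (5.45), CYP19A1, the aromatase (5.40), and CES1, the liver carboxylesterase (4.50), all higher in HepG2. CYP1A1, the target of the aryl hydrocarbon receptor, was lower by a difference of −2.35 (standard error 0.33). CYP2E1, which oxidizes ethanol, was listed for Huh7 alone at 0.833 ± 0.149 CPM (SD, n = 3), and CYP3A4 was listed for neither line. The other 22 genes of the list were listed for one line (5 for HepG2, 8 for Huh7) or for neither (9), so the test says little about the drug-oxidizing families as a whole.

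Conjugating enzymes were often higher in HepG2, 14 of 27 tested against 9 lower, with 10 and 4 beyond 2-fold and a median of 0.50. Their summed level was lower in HepG2, at 1651 to 1737 CPM beside 2145 to 2273 CPM in Huh7. GSTA1 and GSTA2, the alpha glutathione transferases, were higher by 3.86 and 4.56. They resemble each other in sequence, and how reads that match both were counted is not stated. SULT2A1, which sulfates steroids, was higher by 1.23. GSTP1, the transferase of a different class, was lower by a difference of −10.46 (standard error 0.21), and SULT1E1, the estrogen sulfotransferase, by a difference of −3.36. Transporters of bile acids and drugs also divided. SLC10A1 had 0.283, 0.358 and 0 CPM in HepG2 and 278, 292 and 277 in Huh7. SLC22A9 and SLC51B, the beta subunit of the basolateral bile acid exporter, were lower in HepG2 by differences of −3.23 and −2.86, and ABCG5, a half-transporter of sterols, was higher by 3.13. The bile salt export pump ABCB11 was listed for Huh7 alone at 23.3 ± 2.03 CPM (SD, n = 3), as were SLCO1B1 at 0.729 and SLCO1B3 at 4.38 CPM. Of 22 transporters tested, 10 were higher and 6 lower in HepG2, 5 and 4 beyond 2-fold. The share beyond 2-fold was 40.9%, beside 16.6% of all genes tested.

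Genes that DNA damage induces, which halt the cell cycle or promote cell death, were mostly higher in HepG2. CDKN1A, a cell cycle inhibitor (chromosome 6 from 36676460 to 36687337), had 209, 284 and 300 CPM in HepG2 and 12.2, 16.1 and 16.7 in Huh7, a difference of 4.14 (standard error 0.18, adjusted p = 7.18e-07). FAS, the death receptor, had 30.3, 26.5 and 39.8 CPM against 0.533, 0.49 and 0.401. Every HepG2 library was above every Huh7 library in both genes. MDM2, a ubiquitin ligase, had 256, 243 and 245 CPM against 68.9, 69.2 and 68.6, a difference of 1.85 (standard error 0.05). FDXR, a mitochondrial reductase, and GDF15, a stress-induced cytokine, were higher by 3.71 and 3.55. GDF15 varied within the lines, with 312, 427 and 635 CPM in HepG2 and 24.1, 35.3 and 59.1 in Huh7. Of 28 genes of this list tested, 21 were higher and 5 lower in HepG2, 13 and 2 beyond 2-fold, with a median of 1.05. Those lower beyond 2-fold were TIGAR and PLK2, named here after their values were seen.

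Genes of the cell cycle were more evenly divided between the lines. Of 38 tested, 13 were higher and 10 lower in HepG2, 5 and 3 beyond 2-fold, and the median of 0.01 changed sign under other scalings. The share beyond 2-fold was 21.1%, beside 16.6% of all genes tested. CDKN2A, which encodes the inhibitors p16 and p14ARF, had 4.29, 5.83 and 2.3 CPM in HepG2 and 25.9, 31.2 and 46.5 in Huh7. CCND1 and CDK6, the cyclin and kinase that act early in G1, were higher in HepG2 by 1.54 and 1.53. MCM6, a subunit of the replicative helicase, was lower by a difference of −1.42, RB1 by −0.27, and MKI67, a marker of cycling cells, by −0.38 (standard error 0.07, adjusted p = 0.00191).

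The Wnt pathway held large differences in both directions, and 64.5% of its 31 tested genes passed the call beyond 2-fold, beside 16.6% of all genes tested. AXIN2, a scaffold of the destruction complex and a feedback target of beta-catenin, had 98.6, 112 and 114 CPM in HepG2 and 5.51, 5.84 and 5.66 in Huh7, a difference of 4.25 (standard error 0.09, adjusted p = 2.92e-08). NOTUM, the secreted hydrolase that inactivates Wnt ligands (chromosome 17 from 81952507 to 81961840), had 373, 349 and 270 CPM against 2.1, 2.59 and 2.46. SP5, a transcription factor and target of beta-catenin, was higher by 4.57. LGR5, the R-spondin receptor, was higher by 1.09 (standard error 0.07) and CCND1 by 1.54. CTNNB1, which encodes beta-catenin, was lower, with 435, 435 and 373 CPM against 1030, 1026 and 978, a difference of −1.29 (standard error 0.07). GLUL, the glutamine synthetase of pericentral hepatocytes and a liver target of beta-catenin, was also lower, by a difference of −1.12 (standard error 0.06, adjusted p = 1.7e-06). Upstream, DKK3 and the receptor FZD2 were lower in HepG2 by differences of −8.40 and −5.65. In all, 16 members of the list were higher in HepG2 and 12 lower, with 12 and 8 beyond 2-fold and a median of 0.62.

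**Figure D3:**
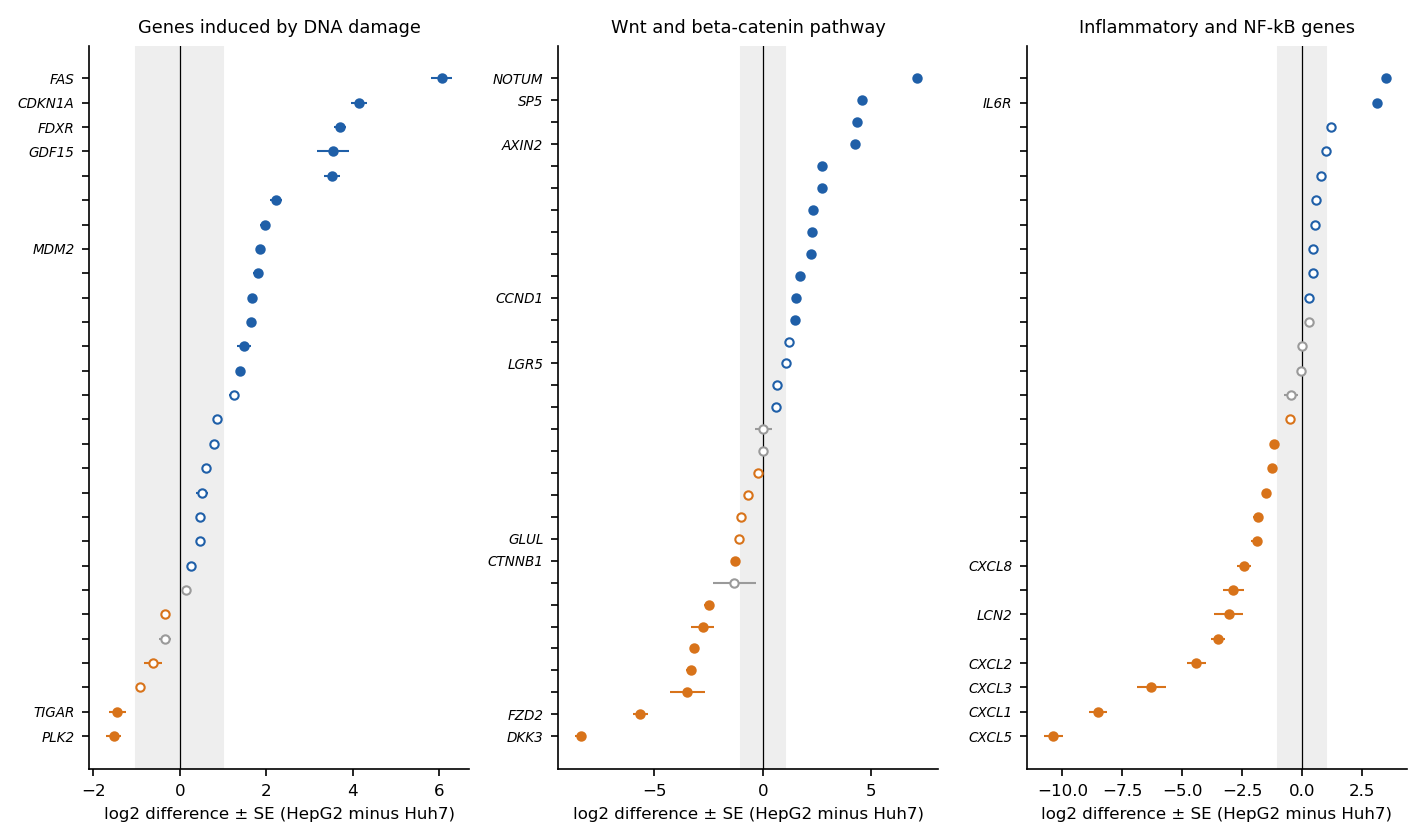
Log2 difference (HepG2 minus Huh7, with standard error) of each tested gene of 3 lists. Filled points passed the call beyond 2-fold, open colored points the adjusted p of 0.05 alone, grey points neither, and the grey band spans 2-fold, with names given for genes described in the text. Of the 28 genes induced by DNA damage, 21 were higher in HepG2, of the 31 genes of the Wnt pathway 16 were higher and 12 lower, and of the 28 inflammatory genes 14 were lower.

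Genes of fetal liver and imprinted genes were mostly higher in HepG2, 13 of 22 tested against 5 lower, with 7 and 3 beyond 2-fold and a median of 0.85. GPC3, a proteoglycan used as a marker of hepatocellular carcinoma, had 2760, 2834 and 2802 CPM in HepG2 and 1096, 1180 and 1176 in Huh7. IGF2, the fetal growth factor, had 200, 292 and 249 CPM against 32.6, 39.2 and 38.8. PEG3 and DLK1 led this list. Against them, SALL4, a stem cell transcription factor, was lower in HepG2 by a difference of −5.75 (−7.20 without HepG2 Ctrl-siRNA replicate 1), and PLAGL1, an imprinted zinc finger gene, by −5.66. LIN28B, which blocks let-7 maturation, was lower by −0.53 (standard error 0.08). The imprinted RNA H19 was listed for HepG2 alone, at 0.331 ± 0.205 CPM (SD, n = 3).

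Germline and positional identity genes were more often listed for Huh7. So were genes at large, with 2653 listed for Huh7 alone and 1859 for HepG2 alone, 1481 and 715 of them protein-coding. Of 40 cancer-testis genes, 9 were listed for Huh7 alone and 2 for HepG2 alone, and the 2 that could be tested, PRAME and TEX15, were both lower in HepG2. PRAME had 0.243, 0.179 and 0 CPM in HepG2 and 94.6, 89.8 and 87 in Huh7, a difference of −9.35 that ran from −10.06 to −8.70 when HepG2 Ctrl-siRNA replicate 1 or 3 was left out. MAGEA3, which resembles MAGEA6 in sequence, was listed for Huh7 alone at 4.66 CPM. Of 39 HOX genes, which set position along the body axis, 16 were listed for Huh7 alone and 0 for HepG2 alone. Of the 12 that could be tested, 0 were higher and 5 lower in HepG2 at the adjusted p of 0.05, and 3 of them were beyond 2-fold, or 5 without HepG2 Ctrl-siRNA replicate 3, where 1 gene was higher. HOXC13 and HOXC9 were among the 3, with differences of −6.41 and −4.38, at 7.23 and 5.46 CPM in Huh7. HOXD1 did not pass the test (0.47, standard error 0.25, adjusted p = 0.147), and HOXA10 and HOXB13 were listed for Huh7 alone, at 4.61 and 1.55 CPM.

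Host factors of hepatitis viruses ranged from genes that did not pass the test to large differences. OCLN (0.18, standard error 0.12, adjusted p = 0.251) and SCARB1 (−0.04, standard error 0.09, adjusted p = 0.709), both entry factors of hepatitis C virus, did not pass the test, and their values overlapped between the lines. CLDN1, a tight junction protein and entry factor, had 233, 178 and 191 CPM in HepG2 and 698, 719 and 754 in Huh7. EGFR was lower by a difference of −0.57. CD81, the tetraspanin that hepatitis C virus binds (chromosome 11 from 2376177 to 2397802), was listed for Huh7 alone with 161, 158 and 150 CPM. SLC10A1, through which hepatitis B virus enters, had the largest difference of this list. CD9 and SEC14L2, which supports replication of hepatitis C virus, were higher in HepG2 by 3.03 and 2.60. Of 21 genes tested, 7 were higher and 7 lower in HepG2, 3 and 2 beyond 2-fold. The share beyond 2-fold was 23.8%, near the 16.6% of all genes and the 19.4% of protein-coding genes tested. At the adjusted p of 0.05, 59.3% of all genes passed.

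Genes of class I antigen presentation were among those higher in HepG2 and chemokines among those lower. HLA-C had 175, 183 and 165 CPM in HepG2 and 9.8, 11.4 and 13.4 in Huh7, a difference of 3.93 (standard error 0.12). NLRC5, the transactivator of class I genes, was higher by 3.88. HLA genes are polymorphic and alike, and how reads that match several were counted is not stated. IFITM2, an interferon-induced membrane protein, was higher by 3.68 and RIGI, a sensor of viral RNA, by 0.73. IFIT2, also interferon-induced, was lower, at 0.526, 0.0896 and 0 CPM against 3.09, 2.63 and 2.51, a difference of −3.73 that ran from −5.91 to −3.10 without HepG2 Ctrl-siRNA replicate 1 or 3. Of 38 genes tested, 20 were higher and 9 lower in HepG2, 10 and 3 beyond 2-fold, with a median of 0.53.

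Of 28 inflammatory and NF-kB genes tested, 2 were higher and 13 lower in HepG2 beyond 2-fold, against 8.03% and 8.52% of all genes tested. The neutrophil-attracting chemokines CXCL5, CXCL1, CXCL3 and CXCL2, neighbors on chromosome 4 that share much of their sequence, led the list. CXCL5 had 1.05, 0.448 and 0 CPM in HepG2 and 730, 601 and 596 in Huh7. CXCL1 had 0.526, 0.179 and 0 CPM against 84.3, 76.4 and 92.7, a difference of −8.51 (−9.96 and −7.85 without HepG2 Ctrl-siRNA replicate 1 and 3). CXCL3 differed by −6.29 (−7.64 and −5.64) and CXCL2 by −4.41 (−5.13 without replicate 1). HepG2 Ctrl-siRNA replicate 1 had the highest CXCL1, CXCL2, CXCL3 and CXCL5 of the line. CXCL8, the interleukin-8 gene, had 15, 10.5 and 26.8 CPM against 98, 88.2 and 96.6. LCN2, an iron-sequestering acute phase protein, differed by −3.07 (−4.45 without replicate 1). IL6R, the interleukin-6 receptor, was higher in HepG2 by 3.11. In total 10 genes were higher and 14 lower, with a median of −0.48.

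Epithelial and mesenchymal genes differed in both directions. KRT19, a keratin of bile duct cells and liver progenitors, had 352, 407 and 480 CPM in HepG2 and 23.8, 25.3 and 24.7 in Huh7. EPCAM, an epithelial adhesion molecule, had 190, 152 and 152 CPM against 11, 12 and 13.5. CLDN4, a claudin of bile ducts, was higher by 8.27. CD24, a surface glycoprotein, had 2.55, 3.09 and 6.52 CPM in HepG2 and 351, 367 and 348 in Huh7. CDH1, E-cadherin, was lower in HepG2 by a difference of −0.51 (standard error 0.12, adjusted p = 0.00592). Of 26 epithelial and mesenchymal genes tested, 13 were higher and 7 lower in HepG2, 9 and 4 beyond 2-fold. Of the 8 bile duct markers tested, 5 were higher and 2 lower, and the summed level of the list was 1693 to 1737 CPM in HepG2 and 533 to 556 in Huh7. Fewer cells of a kind and less RNA per cell cannot be told apart in such libraries.

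Markers of other cell types were measured in both lines, some at high levels. Of 12 endothelial markers, 5 were listed for HepG2 and 2 for Huh7, with summed levels of 52.9 to 83.9 and 1.30 to 2.36 CPM. The defining genes VWF and KDR were listed for neither line, CDH5 had 0.0809, 0.134 and 0 CPM in HepG2, and PECAM1 and ESAM, named by rule, differed by 3.93 (4.66 without Huh7 Ctrl-siRNA replicate 2) and 5.05. Of 15 leukocyte markers, CD14 and LYZ alone could be tested, and PTPRC, which defines leukocytes, was listed for neither line. LYZ, which encodes lysozyme, had 1726, 1973 and 2335 CPM in HepG2 and 561, 563 and 577 in Huh7 and made up nearly the whole level of its list, which summed to 1729 to 2341 CPM in HepG2 and 563 to 578 in Huh7. CD14 was lower in HepG2 by a difference of −2.72. Of 13 fibroblast and stellate markers, 9 were listed for HepG2 and 10 for Huh7, with sums of 86.0 to 117 and 86.6 to 94.8 CPM, and 5 were tested. LUM, a matrix proteoglycan, had 2 counts in all of HepG2 and 1955 in Huh7, a ratio of 1043 with an exact counting interval of 288 to 8618, and RGS5 differed by −3.34 (−4.08 and −2.72 without HepG2 Ctrl-siRNA replicate 1 and 3). TAGLN and PDGFRB were higher in HepG2 by 5.35 and 2.10.

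Matrix and adhesion genes differed at both ends, with 11 higher and 10 lower beyond 2-fold of 40 tested. SPARC, a secreted matrix protein, had 98.2, 89.6 and 82.1 CPM in HepG2 and 0.497, 0.49 and 0.201 in Huh7. TIMP1, an inhibitor of matrix proteases, was higher by 5.92 (standard error 0.27). The collagens COL12A1 and COL6A2 were lower by differences of −7.56 and −5.98 (−8.18 without HepG2 Ctrl-siRNA replicate 3 and −7.30 without replicate 1). ITGB1, the common beta integrin, and LAMB1, a laminin chain, were lower by −0.51 and −0.56. COL4A1 was listed for Huh7 alone at 0.589 CPM. The median was −0.44 over the list and 0.01 when a mean of 5 CPM in one line was required.

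**Figure D4:**
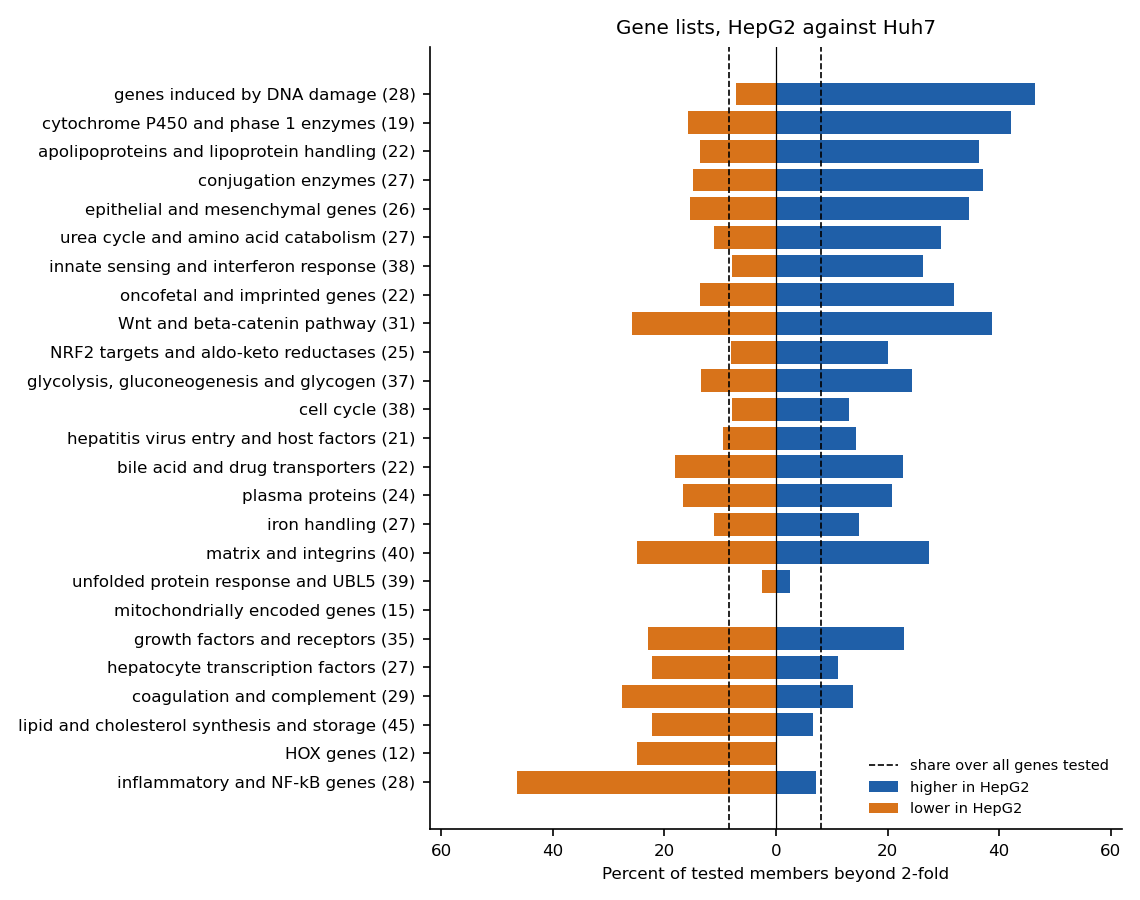
Percent of the tested genes of each list that passed the call beyond 2-fold as higher (blue, right) or lower (orange, left) in HepG2, with the number tested in parentheses, for lists with at least 12 genes tested. Dashed lines mark the shares over all genes tested, 8.03% higher and 8.52% lower. Genes induced by DNA damage reach farthest to the right and inflammatory genes farthest to the left, and those of the unfolded protein response stay inside the lines.

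Genes of lipid synthesis and storage were more often lower in HepG2. Of 45 tested, 12 were higher and 26 lower, 3 and 10 beyond 2-fold, with a median of −0.42. HMGCS1, an early enzyme of cholesterol synthesis, had 179, 240 and 236 CPM in HepG2 and 1864, 1854 and 1759 in Huh7. FADS2, a fatty acid desaturase, had 68.2, 95.4 and 89.8 CPM against 1015, 1085 and 1009. AGPAT2, an acyltransferase of triglyceride synthesis, differed by −4.02. FASN, fatty acid synthase, and SCD, the stearoyl-CoA desaturase, differed by less, −0.88 and −0.60, each past the adjusted p of 0.05. INSIG1, which retains SCAP and SREBP in the endoplasmic reticulum when sterols are ample, was the largest difference of the list.

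Genes of glucose uptake and breakdown differed in both directions, with more of them higher in HepG2. SLC2A3 had 611, 713 and 702 CPM in HepG2 and 0.675, 0.936 and 0.652 in Huh7. SLC2A2, the glucose transporter of hepatocytes, had 55.1, 57.2 and 52.8 CPM against 0.462, 0.267 and 0.1, a difference of 7.52 (8.15 without Huh7 Ctrl-siRNA replicate 1). PKLR, the liver form of pyruvate kinase and a ChREBP target, was higher by 5.28, while PKM, the form of proliferating cells, was lower by a difference of −0.58 (standard error 0.10). PFKP, a phosphofructokinase, was higher by 4.81 (5.58 without Huh7 Ctrl-siRNA replicate 2) and HK2 by 0.77. The gluconeogenic genes PCK1 and G6PC1 were listed for HepG2 alone. PCK1 varied from 10.8 over 21.1 to 47.4 CPM between the 3 libraries, and G6PC1 had 0.97, 1.48 and 0. Of 37 genes tested, 20 were higher and 10 lower in HepG2, 9 and 5 beyond 2-fold, with a median of 0.41.

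Among iron genes, BMP4, a ligand of the pathway that induces hepcidin, had 215, 235 and 214 CPM in HepG2 and 6.43, 5.97 and 6.27 in Huh7. HAMP, the hepcidin gene, had 4.81, 7.3 and 7.3 CPM against 0.355, 0.401 and 0.251, a difference of 4.24 (standard error 0.33). TFRC and TFR2, the transferrin receptors, were lower by differences of −0.56 and −1.19. SLC39A8, a metal importer, and CYBRD1, a ferric reductase, were lower by −6.17 and −4.07 (−5.59 and −3.46 without HepG2 Ctrl-siRNA replicate 3, and −4.76 for CYBRD1 without replicate 1). Of 27 tested, 11 were higher and 8 lower, 4 and 3 beyond 2-fold. The share beyond 2-fold was 25.9%, beside 16.6% of all genes and 19.4% of protein-coding genes tested. At the adjusted p of 0.05, 59.3% of all genes passed.

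The factor NRF2, encoded by NFE2L2, controls a battery of antioxidant enzymes. NFE2L2 was higher in HepG2 by 0.30 (standard error 0.07). Of 25 of its targets and aldo-keto reductases tested, 13 were higher and 7 lower, 5 and 2 beyond 2-fold. NQO1, AKR1B10 and AKR1C3, at 123 CPM in HepG2 and 3.19 in Huh7, were higher by 9.04, 7.81 and 5.27, and AKR1C4 was lower by a difference of −4.26. The AKR1C genes are close in sequence, so reads may be divided among them in a way that is not stated.

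Growth factor genes were evenly divided, 15 higher and 12 lower in HepG2 of 35 tested, with 8 and 8 beyond 2-fold. IGFBP1 had 726, 793 and 926 CPM in HepG2 and 3.27, 6.06 and 4.96 in Huh7. TGFA, a ligand of EGFR, was higher by 5.73. IGFBP3 and FGF2 were lower by differences of −4.46 and −3.80 (−4.53 for FGF2 without HepG2 Ctrl-siRNA replicate 1). FGFR4, the receptor of hepatocytes for FGF19, was lower by −1.47 (standard error 0.09), and its ligand FGF19 was listed for Huh7 alone at 29.4, 31.6 and 35.7 CPM. MET and IGF1R did not pass the test, with differences of −0.02 (standard error 0.09) and −0.00 (standard error 0.08). The mitochondrial genome contributed 15 genes, of which 3 were higher and 7 lower in HepG2 and 0 beyond 2-fold, and they took 1.90% to 2.35% of listed counts in HepG2 and 2.46% to 3.30% in Huh7 (two-sided exact permutation p = 0.1).

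UBL5, the target of the study, and genes of the unfolded protein response differed little. No list apart from the mitochondrially encoded genes had a smaller share beyond 2-fold. UBL5 encodes a small ubiquitin-like protein (ENSG00000198258, chromosome 19 from 9827892 to 9830115). It had 63.8, 59.4 and 62.6 CPM in HepG2 and 68.1, 70.8 and 67.1 in Huh7. Every HepG2 library lay below every Huh7 library (two-sided exact permutation p = 0.1), and the difference of −0.15 (standard error 0.07, adjusted p = 0.0825) did not pass the test over all genes. It did pass with library totals in place of TMM (−0.25) and with limma voom (−0.18). Of the 39 genes of the unfolded protein response tested, 13 were higher and 12 lower in HepG2, and 1 in each direction was beyond 2-fold, 5.13% beside 16.6% of all genes tested. Without HepG2 Ctrl-siRNA replicate 3, 1 and 3 genes were.

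The 3 sensors that start the response differed by small amounts. EIF2AK3, which encodes PERK, had 46.8, 53.4 and 54.3 CPM in HepG2 and 67.6, 67.6 and 68.9 in Huh7, a difference of −0.40 (standard error 0.08, adjusted p = 0.0024). ATF6 was lower by −0.29 (standard error 0.06). ERN1, which encodes IRE1, was higher by 0.43 (standard error 0.16, adjusted p = 0.0463), a call that was lost under RLE scaling, with library totals and without any 1 of HepG2 replicate 2 and the 3 Huh7 libraries (0.40 to 0.49 without these). HSPA5, the chaperone BiP, had 1633, 2167 and 2266 CPM against 1120, 1117 and 1115, a difference of 0.86 (standard error 0.12, adjusted p = 0.000326). DDIT3, which encodes CHOP, did not pass the test (0.29, standard error 0.15, adjusted p = 0.12), and its values overlapped between the lines. DNAJC3, an endoplasmic reticulum co-chaperone, was higher by 1.42 (standard error 0.09). CHAC1, a glutathione-degrading enzyme induced downstream of PERK, had 0.283, 0.538 and 0 CPM in HepG2 and 26.3, 29.6 and 41.1 in Huh7, a difference of −6.95 (standard error 0.52), −6.30 without HepG2 replicate 3 and −7.87 without replicate 2.

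A further 1859 genes were listed for HepG2 alone and 2653 for Huh7 alone, and no difference was computed for them because the tables hold no count for the other line. Most were low. The median was 0.47 CPM for the former and 0.821 CPM for the latter, and 99 and 258 of them reached 10 CPM. Protein-coding genes made up 715 of the HepG2 genes and 1481 of the Huh7 genes, lncRNA genes 694 and 842. Among protein-coding genes, MAGED1, a p75 neurotrophin receptor adaptor, was highest for HepG2 with 228, 236 and 233 CPM, followed by PTK7, a Wnt co-receptor, at 168, UNC13D, which acts in granule release, at 102, PAQR8, a membrane progesterone receptor, at 101, CD74, the invariant chain of class II antigen presentation, at 99.3 and CACNA2D4, a calcium channel subunit, at 92.0 CPM. For Huh7, TMEM176B and TMEM176A, whose annotated spans overlap on chromosome 7, were highest with means of 229 and 222 CPM. ATL3, which shapes endoplasmic reticulum tubules, had 216 CPM, ME1, the cytosolic malic enzyme, 158, CD81 157 and GPD2, the mitochondrial glycerol phosphate dehydrogenase, 139. Every listed gene had at least 11 counts in 1 library of its line. The study's methods mention filtered counts without giving the rule. A gene not listed may therefore have had counts, and how many is not known.

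The difference between the lines was not even along the genome. Over 11824 protein-coding genes tested, the median was −0.03. Medians by chromosome ran from −0.43 on chromosome 7 and −0.33 on chromosome 19 to 0.36 on chromosomes 16 and 20 and 0.38 on chromosome 2. On chromosome 20, 71.6% of genes were above 0, on chromosome 7 32.5%. These medians have no test, since genes are not replicates, and chromosomes 4, 8, 10, 18 and 21, with medians from −0.01 to 0.06, changed sign under some settings.

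Runs of neighboring genes lay farther from 0 than whole chromosomes. Windows of 40 successive protein-coding genes were described for this, a description added after the tests had been chosen. The first 2 windows of chromosome 6, from 291630 to 25701783, had medians of 1.37 and 1.27, with 31 and 27 of 40 genes higher in HepG2. A window of chromosome 16 from 4608883 to 14896157 had 36 of 40 genes higher and a median of 1.15. The first 4 windows of chromosome 2, up to 42792593, had medians of 0.68 to 0.79. In the other direction, a window of chromosome 11 from 66002228 to 67506263 had a median of −1.57 with 33 of 40 genes lower. The window from 154272355 to 156007070 on chromosome 1 had a median of −1.18 with 35 of 40 lower, and its neighbors from 149052186 to 161045977 had −0.67 to −0.87. On chromosome 7 the window from 5970925 to 21514822 had 34 genes lower and 0 higher, with a median of −1.14, and on chromosome 9 the window from 34652162 to 38069227 had −1.20. The last 7 windows of chromosome 19, from 41883173 on, were all below −0.61. GSTP1 lies in the window of chromosome 11 that follows the one named, whose median was −0.68. Copy number was not measured in these libraries.

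**Figure D5:**
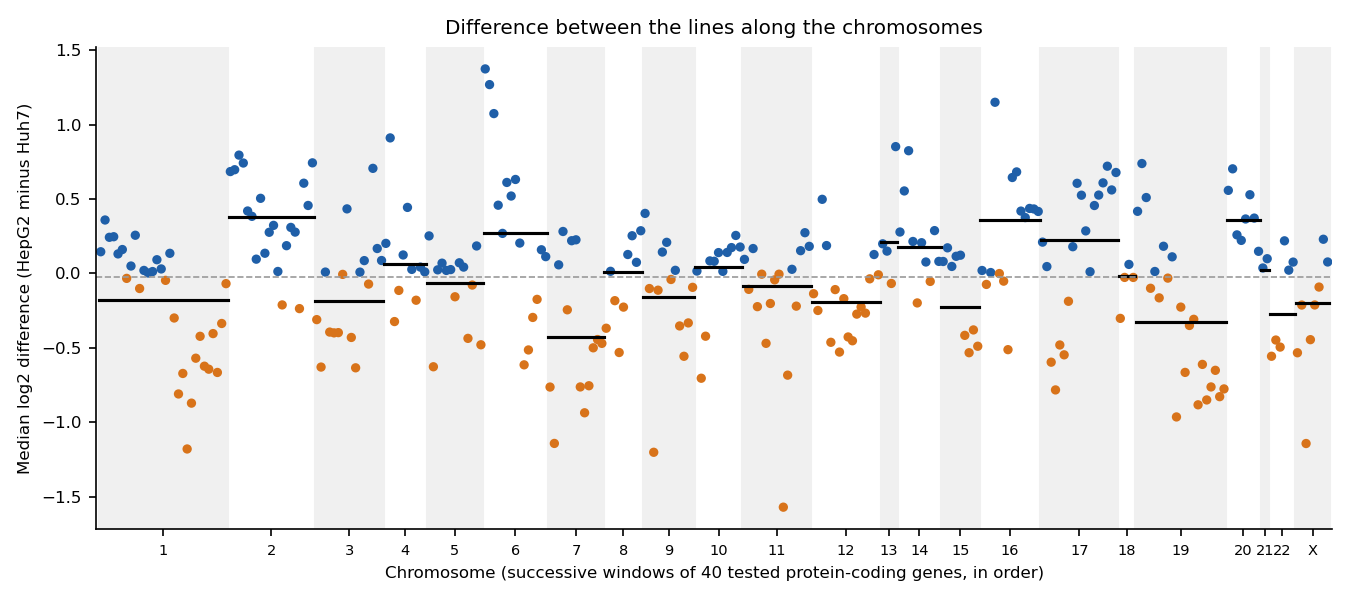
Median log2 difference (HepG2 minus Huh7) of successive windows of 40 tested protein-coding genes in chromosome order. Each point is a window, blue above 0 and orange below, black bars are chromosome medians and the dashed line is the median over all protein-coding genes (−0.03). The start of chromosome 6 reaches 1.37 and a window of chromosome 11 falls to −1.57.

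The same comparison in the 6 libraries with UBL5 siRNA, none of which entered the tests above, gave the direction of most genes again. Of the 2534 genes beyond 2-fold with Ctrl-siRNA, 2527 could be tested with UBL5 siRNA, 2502 had the same direction and 1926 were also called beyond 2-fold, beside 19.9% of all 15033 genes tested there. The other 25 had the opposite sign. Among named genes called beyond 2-fold with Ctrl-siRNA, the estimates of CXCL8, LCN2 and CD14 had the opposite sign with UBL5 siRNA. CXCL8 and LCN2 did not pass the test there, at 0.01 (standard error 0.30) and 0.21 (standard error 0.58), beside −2.42 and −3.07 with Ctrl-siRNA. CD14 did pass, at 0.55 (standard error 0.19, adjusted p = 0.0237) beside −2.72 with Ctrl-siRNA. Some genes kept their direction at a smaller size. CXCL2 did not pass the test, at −0.59 (standard error 0.28, adjusted p = 0.0847) beside −4.41. SULT1E1 and AKR1C4, at −1.30 and −1.25 beside −3.36 and −4.26, lost the call beyond 2-fold. CXCL1 and CXCL3 kept it, at −4.22 and −2.11 beside −8.51 and −6.29. ATF6 passed the test in both, at 0.71 (standard error 0.09) with UBL5 siRNA beside −0.29 with Ctrl-siRNA. Whether these differences between the siRNAs were larger than the spread was not tested here.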

How the data were processed

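Per the study's methods and the labels, the authors used bcl2fastq for demultiplexing, FastQC 0.11.9 for read quality, STAR 2.7.6a for alignment (build GRCh38) and featureCounts for counts per gene, and tested UBL5 siRNA against Ctrl-siRNA with DESeq2 1.30.0. The strand setting and annotation of the counting are not given in the sources used here. The deposited tables hold raw counts per gene and library, one table for genes that rose and one for genes that fell in each line, with the authors' fold changes and p-values, which were not used. Both tables of a line were combined and the lines joined by Ensembl identifier. Symbols, types and coordinates came from GENCODE 44. Count columns matched to no sample numbered 0.

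The 6 Ctrl-siRNA libraries were filtered with filterByExpr (minimum count 10, minimum total 15), scaled with TMM and compared with edgeR 4.0.16 by the quasi-likelihood test with Benjamini-Hochberg adjustment over all genes tested (threshold 0.05). The call beyond 2-fold used glmTreat at a log2 of 1. Every adjusted p is from edgeR. The fits were tested on simulated data. Single values were compared by exact permutation. Intervals cover counting error only.

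The members and the 30 gene lists were chosen with earlier results of these data known. Named genes were taken from the 12 largest differences in each direction (mean of at least 100 CPM), core genes marked in the lists, the 4 largest differences beyond 2-fold per list, and the 6 highest protein-coding genes of each line listed for it alone. Some of these genes are not reported here, and 1 gene was left out of the list of genes induced by DNA damage, which is described with no test. The genes PEG3, VIM, GPRC5B, CEBPA, AXIN2, IGF2, NFE2L2, DKK3, RIGI, HMGCS1, APOA4, TAGLN, LYZ, DDIT3, SULT1E1, HOXA10, HOXD1, SLCO1B3 and CYP2E1 share about 20% or more of their exon bases with another gene, so their counts are uncertain.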

Additional observations from a re-analysis of the deposited data

How the results depend on the processing

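Genes called numbered 8449 to 10647 under RLE scaling, listed totals, no filter, a mean of 5 CPM, DESeq2 1.42.0, limma voom and a fit of all 12 libraries, and 7638 to 10917 when 1 library was left out, beside 9080. Beyond 2-fold the ranges were 2144 to 2874 and 2146 to 3180, beside 2534. Of those 2534 genes, 0 changed sign in the fits in which they were tested, and a mean of 5 CPM left 2296 of them. The same-numbered libraries of the lines were not paired by the labels, and their deviations correlated at 0.0516, 0.105 and −0.0347. With the replicate number as a block, 8542 genes were called and 2347 beyond 2-fold.

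Listed totals moved the median of all genes from −0.02 to −0.13. They gave −0.051 for FOXA1 and −0.065 for TTR, both of opposite sign to the reported value. Limma voom gave −0.088 for TTR and 0.020 for SCARB1, and no filter gave 0.00017 for IGF1R, again of opposite sign. Leaving out 1 library gave −0.16 to 0.24 for TTR, −0.13 to 0.016 for SCARB1, −0.0531 to 0.067 for IGF1R and −0.12 to 0.074 for MET. None of these genes passed the test, and the cause was not tested. For UBL5 the CPM difference was −6.74 and, with listed totals, −11.4. Over all named genes and settings, 2434 values kept direction and side of the threshold, 6 passed it newly, 19 lost it and 11 changed sign. Genes with few counts in HepG2 depend on the depth of its 3 libraries and on replicate 3.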
